A study of Mus musculus with 9 samples.

Results

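Fatty acid uptake and oxidation in the late fetal mouse heart was followed through 34 genes, chosen as a named list of carriers, activating enzymes, carnitine shuttle components, enzymes of mitochondrial beta-oxidation and acceptors of its electrons. All 34 were found among the 24571 gene symbols used. Whole hearts of C57BL/6N embryos at E18.5 had been sequenced after capture of mRNA, in 3 libraries each of wild type, heterozygous (*Ctcf* +/R567W) and homozygous (*Ctcf* R567W/R567W) embryos. The R567W allele replaces an arginine in a DNA-binding zinc finger of CTCF, the protein that anchors chromatin loops, and had been introduced in the germline by CRISPR/Cas9, so every cell of a mutant heart carries it. No Cre driver or transgene was involved. Which litters the embryos came from is not given in the sources used here, so p-values measure the spread between these libraries. Expression was given as TPM, a level of transcripts corrected for transcript length that can be compared between genes and is scaled to a common total in each library. TPM keeps no read depth, and counting error is therefore unknown.

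Heart muscle burns fatty acids in the mitochondrion. Lipoprotein lipase frees them from circulating triglyceride, CD36 and FATP1 bring them across the membrane, the heart-type binding protein FABP3 carries them through the cytosol, and acyl-CoA synthetases activate them. The carnitine shuttle then moves the acyl chains into the mitochondrion, where a spiral of 4 repeated reactions shortens them and passes electrons to the respiratory chain. Before birth the heart relies mainly on glucose and lactate, and this machinery becomes the main fuel supply after birth.

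The starts of 2 loci are shown, the first because *Cpt1a* was the member with the largest positive log2 difference between homozygous and wild-type hearts, the second because *Hadha* and *Hadhb*, which encode both subunits of the trifunctional protein, are transcribed in opposite directions from 1 short interval. The *Cpt1a* stretch (chr19:3323051-3323284, plus strand, GRCm38) ends 16 bases before the RefSeq start site, inside the gene as annotated in GENCODE M21 but outside its exons. The interval between the annotated ends of *Hadha* and *Hadhb* (chr5:30155163-30155247, plus strand) is intergenic. Capitals mark AGGTCA, the hexamer that nuclear receptors recognise, and GGGCGG, the GC box, each on either strand, so that TGACCT and CCGCCC are their reverse complements.
Cpt1a: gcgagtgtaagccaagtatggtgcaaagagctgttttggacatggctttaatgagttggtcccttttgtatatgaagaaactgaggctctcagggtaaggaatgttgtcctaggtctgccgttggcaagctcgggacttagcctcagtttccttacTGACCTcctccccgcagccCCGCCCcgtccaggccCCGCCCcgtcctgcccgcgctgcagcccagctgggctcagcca
Hadha-Hadhb: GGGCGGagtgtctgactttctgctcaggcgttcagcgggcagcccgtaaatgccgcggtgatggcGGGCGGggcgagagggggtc
The *Cpt1a* stretch held 1 AGGTCA hexamer and 2 GC boxes, and the *Hadha*-*Hadhb* interval held 2 GC boxes. RefSeq windows of 300 bases, from 250 before to 50 after the start (GRCm38.p6), were matched for 28 of the 34 genes. AGGTCA was found on either strand in 7 of the 28 (*Cd36*, *Cpt1a*, *Cpt1c*, *Ucp3*, *Acadvl*, *Acadm* and *Echs1*), or 25.0%, against 16.0% of 27025 promoters of all genes. The longer form TCAAGGTCA, which contains the hexamer, was in 0 of the 28 and in 0.407% of all promoters. AGGTCA repeated in the same orientation with 1 base between the copies, the arrangement PPAR dimers recognise, was in 0 of the 28 and in 0.0444% of all. GGGCGG was in 18 of the 28 (64.3%, against 35.9%), CCAAT in 14 (50%, against 37.9%) and TATAAA in 0 (against 14.2%). *Lpl*, *Acot13*, *Cpt1b*, *Crat*, *Acaa2* and *Decr1* were not matched.

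The libraries were hearts by their markers, with 15 cardiomyocyte genes summing to 41533 to 58955 TPM. Transcripts of other organs were uneven. Homozygous replicate 3 held 765 TPM of thymocyte markers (15 genes summed), where the other 8 libraries held 1.33 to 4.06 TPM. Heterozygous replicate 1 held 4167 TPM of liver markers (15 genes), where the others held 30.9 to 174 TPM. Airway and lung markers (12 genes) reached 2628 TPM in wild-type replicate 1 and, in heterozygous replicate 1, 1109 TPM, beside 2.19 to 52.8 TPM in the remaining 7. Adipocyte markers, of interest because fat shares much of this gene set, summed to 8.73 to 15.8 TPM, with *Ucp1*, *Plin1*, *Retn*, *Cfd* and *Elovl3* at or near 0 in every library. By *Xist*, wild-type replicate 1, the 3 heterozygous libraries and homozygous replicate 1 were female, so sexes were not balanced between genotypes. Over the 13682 genes that were tested, those averaging 1 TPM or more, the median log2 difference was 0.23 between homozygous and wild-type hearts, 0.08 between homozygous and heterozygous hearts and 0.15 between heterozygous and wild-type hearts. As 81.7%, 65.9% and 81.5% of these genes lay above 0, differences of members are also given relative to the medians.

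The pathway was expressed in every library. *Fabp3* stood far above the other members, at a mean of 1483 TPM over the 9 libraries and at rank 52 to 81 among all listed symbols. *Etfb*, which encodes a subunit of the electron transfer flavoprotein, followed at 645 TPM, then *Acadl* at 444 TPM and *Dbi* at 431 TPM. *Cpt1c*, a form of carnitine palmitoyltransferase known from neurons, was at 1.9 to 3.94 TPM. *Ucp3*, a mitochondrial carrier induced by fatty acids in adult muscle, was at 0 to 0.11 TPM and was the single member too low to be tested. The 34 genes summed to 6756 ± 639 TPM in wild-type hearts, to 7085 ± 319 TPM in heterozygous hearts and to 6466 ± 900 TPM in homozygous hearts (SD, n = 3 per genotype), and the 3 ranges overlapped.

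**Figure D1:**
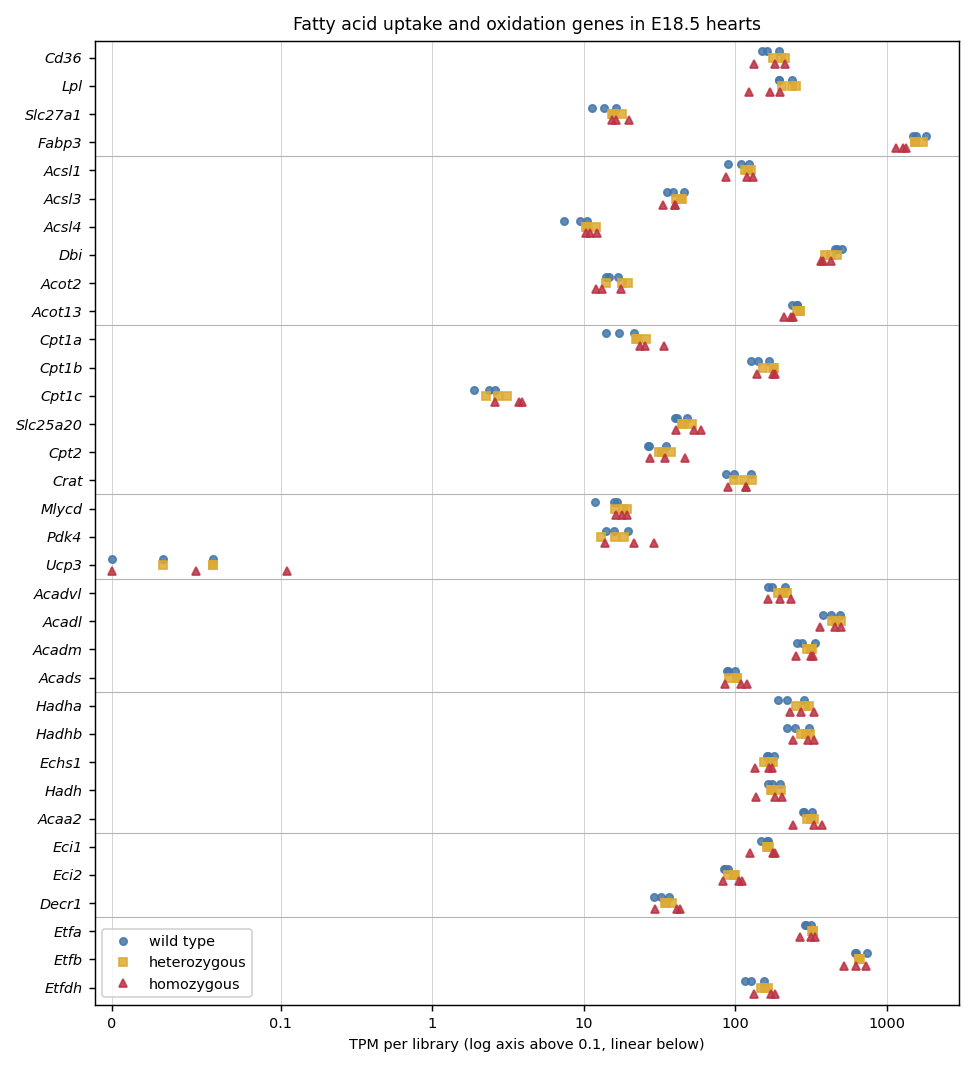
TPM of the 34 genes in each of the 9 libraries (horizontal axis, logarithmic above 0.1 TPM and linear below), with genes in rows grouped by role, and circles, squares and triangles for wild-type, heterozygous and homozygous libraries. Levels span from 0 TPM for *Ucp3* to 1798 TPM for *Fabp3*, and in most rows the 3 genotypes overlap.

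Homozygous hearts were compared with wild-type hearts to ask how the mutation on both alleles relates to these genes. *Fabp3* and *Dbi*, which encode carriers of fatty acids and of acyl-CoA, lay lower in all 3 homozygous libraries than in any wild-type library, and *Cpt1a*, the liver form of the carnitine shuttle's entry enzyme, lay higher. None of the 33 tested members passed an adjusted p of 0.05 by limma, where 0.336% of all tested genes did, and 3 members (*Fabp3*, *Dbi* and *Cpt1a*) had an unadjusted p under 0.05, as did 25.0% of all tested genes. The median log2 difference of the 33 was 0.08, or −0.16 relative to all genes, with a range of −0.37 to 0.63. Of the 33, 24 were above 0, where 81.7% of all genes were, and 23 were below the median of all genes. TPM ranges did not overlap for 2 members on the lower side, against 2.38% of all genes, and for 1 on the higher side, against 22.3%. After median-ratio scaling, which brings the median of all genes to 0.02, *Fabp3* alone passed of the 33 members, where 1.67% of all genes did. Markers of heart muscle lay in a similar place, but this was not particular to them. The median log2 difference of the 15 cardiomyocyte genes was 0.02, or −0.21 relative to all genes, and 14 of the 15 were below the median of all genes. Relative to all genes, medians were −0.15 for fibroblast, −0.46 for skeletal muscle and −0.91 for erythroid markers. They were −0.02 for endothelial and 0.08 for macrophage markers. In whole hearts, fewer cells of a type and less RNA per cell cannot be told apart.

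**Figure D2:**
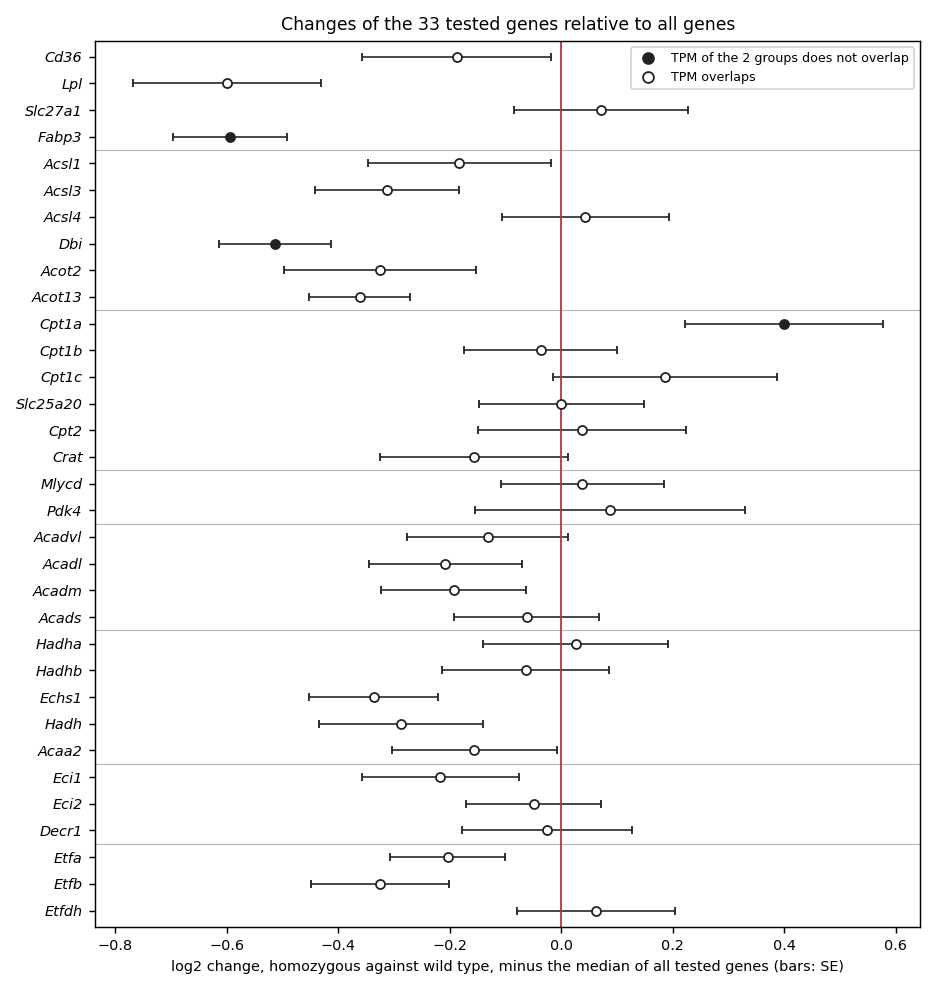
Log2 difference between homozygous and wild-type hearts for the 33 tested genes, minus the median of all tested genes (horizontal axis, log2 scale), with genes in rows grouped by role, bars for the SE, and filled points where TPM ranges of the 2 groups do not overlap. *Lpl*, *Fabp3* and *Dbi* lie farthest below the vertical line at 0 and *Cpt1a* farthest above it.

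Uptake and cytosolic transport held both of the lowest differences. *Fabp3* (chr4:130308595-130315463, mm10), the heart's cytosolic fatty acid carrier, stood at 1554, 1481 and 1798 TPM in the wild-type libraries, at 1518, 1526 and 1720 TPM in the heterozygous libraries, and at 1330, 1281 and 1141 TPM in the homozygous libraries. The homozygous libraries were below each of the other 6. The log2 difference between homozygous and wild-type hearts was −0.36 (SE 0.10), or 0.778-fold on the log2(TPM + 1) scale, with a limma adjusted p of 0.113. It was −0.61 after median-ratio scaling, where it passed (adjusted p 0.00802). In runs chosen after seeing the data, it passed on that scale without each of the 9 libraries in turn (adjusted p 0.0143 to 0.0477). Without the 3 libraries that held the most transcripts of other organs it was −0.57 after the same scaling and did not pass (adjusted p 0.0946). On the deposited scale it failed to pass whichever single library was omitted (adjusted p 0.0881 to 0.323). Quantile normalization gave −0.27 and no pass (adjusted p 0.228). It did pass with arrayWeights, at −0.24 (adjusted p 0.0433). Leaving haemoglobin genes and those encoded in the mitochondrion out of the total gave −0.42, which passed (adjusted p 0.0476). *Fabp3* made up 23.8% ± 0.808 of the summed TPM of the 34 genes in wild-type hearts, 22.4% ± 0.613 in heterozygous and 19.5% ± 1.59 in homozygous hearts (SD, n = 3 each). Set against the summed cardiomyocyte markers it was 2.98%, 2.80% and 3.14% in wild-type and 2.35%, 2.49% and 2.75% in homozygous hearts. These ranges were separated by the narrow gap between 2.75% and 2.80%, and how many of all genes separate on this share was not counted. *Fabp3*, *Dbi* and *Lpl* stand in gene lists that the study drew from these same libraries, so their direction is not independent evidence. Of the 31-base words in *Fabp3* transcripts, 37.3% also occur elsewhere, chiefly in the pseudogene *Fabp3-ps1*, which was listed at 2.6 to 11.3 TPM. *Zcchc17* overlaps *Fabp3* on the other strand, and its reads cannot be told apart if strand was not used.

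*Lpl* (chr8:68880491-68907448), the lipase that releases fatty acids at the capillary wall, stood at 194, 195 and 236 TPM in the wild-type libraries, at 204, 252 and 237 TPM in the heterozygous ones, and at 170, 198 and 123 TPM in the homozygous ones. Homozygous values overlapped the wild-type range through replicate 2 but lay below all heterozygous values. The log2 difference from wild type was −0.37 (SE 0.17, limma adjusted p 0.204), and −0.61 after median-ratio scaling (adjusted p 0.0564). Without homozygous replicate 3, the lowest library, it was −0.18 on the deposited scale and −0.48 after that scaling. As a share of the summed cardiomyocyte markers *Lpl* was 0.368% to 0.412% in wild-type and 0.295% to 0.385% in homozygous hearts, and these ranges overlapped. *Cd36*, the membrane receptor for long-chain fatty acids, averaged 169 ± 22 TPM in wild-type hearts against 176 ± 40.7 TPM in homozygous hearts, with overlapping values, while endothelial markers, of cells in which *Cd36* is also expressed, summed to 531 to 715 and 588 to 850 TPM. Their part in the level of *Cd36* was not tested. The ratio of *Lpl* to *Cd36*, chosen after the values were seen and given without a test, was 1.2 to 1.29 in wild-type, 1.12 to 1.26 in heterozygous and 0.924 to 0.930 in homozygous hearts. *Slc27a1*, which encodes the transport protein FATP1, was at 13.7 ± 2.49, 16.2 ± 1.38 and 17.1 ± 2.37 TPM in wild-type, heterozygous and homozygous hearts (SD, n = 3 each).

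Activation and handling of acyl-CoA lay on the lower side of all genes. *Dbi* (chr1:120113280-120121078), which encodes the acyl-CoA binding protein, stood at 504, 469 and 452 TPM in the wild-type libraries, at 464, 392 and 425 TPM in the heterozygous libraries, and at 376, 427 and 369 TPM in the homozygous libraries. Every homozygous value was below every wild-type value, and the heterozygous values overlapped both. The log2 difference between homozygous and wild-type hearts was −0.28 (SE 0.10, limma adjusted p 0.139), and −0.52 after median-ratio scaling (adjusted p 0.0648). *Dbi* as a share of the summed cardiomyocyte markers overlapped between the genotypes, at 0.791% to 0.966% in wild-type and 0.666% to 0.890% in homozygous hearts. *Acot13*, a thioesterase that releases fatty acids from CoA, averaged 248 ± 10.1 TPM in wild-type hearts against 227 ± 16.6 TPM in homozygous hearts. *Acot2*, a mitochondrial thioesterase, averaged 15.2 ± 1.49 and 14.3 ± 2.98 TPM (SD, n = 3 each). Of the words in *Acot2* transcripts, 37.3% are shared, chiefly with *Acot1*, so their split between these genes is uncertain. Among the synthetases, *Acsl1*, the main form in heart, was at 108 ± 17.3 and 112 ± 23.3 TPM, *Acsl3* at 40.0 ± 5.38 and 37.7 ± 3.94 TPM, and *Acsl4* at 9.13 ± 1.61 and 11.2 ± 0.935 TPM in wild-type and homozygous hearts (SD, n = 3 each). The median over these 6 genes was −0.32 relative to all genes, and 5 of the 6 were below the median of all genes.

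In the carnitine shuttle all 6 genes were above 0, where 81.7% of all genes were, and their median was 0.02 relative to all genes. Whether the shuttle differed from uptake and activation was not tested. *Cpt1a* (chr19:3322334-3385733) stood at 13.9, 17.0 and 21.4 TPM in the wild-type libraries, at 21.95, 22.5 and 25.8 TPM in the heterozygous ones, and at 25.3, 33.7 and 23.6 TPM in the homozygous ones. Wild-type values were the 3 lowest of the 9, and heterozygous and homozygous values overlapped. The log2 difference between homozygous and wild-type hearts was 0.63 (SE 0.18), or 1.55-fold, with a limma adjusted p of 0.112, and it was 0.40 after median-ratio scaling (adjusted p 0.127). Without wild-type replicate 3, the highest wild-type library, it was 0.78 and passed (adjusted p 0.0285). CPT1A is the main form in liver. Heterozygous replicate 1, the library with 4167 TPM of liver markers, had the lowest *Cpt1a* level of its group, and the part of liver transcripts in *Cpt1a* levels was not tested. As a share of the summed cardiomyocyte markers *Cpt1a* was 0.027% to 0.037% in wild-type, 0.039% to 0.044% in heterozygous and 0.045% to 0.066% in homozygous hearts, in 3 ranges that did not overlap. Those markers averaged 54114, 56736 and 49826 TPM in wild-type, heterozygous and homozygous hearts, so the share also depends on them. How many of all genes separate on this share was not counted.

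*Cpt1b* (chr15:89416405-89425863), the muscle form of the same enzyme, stood at 128, 142 and 166 TPM in the wild-type libraries, at 153, 176 and 179 TPM in the heterozygous ones, and at 177, 182 and 139 TPM in the homozygous ones. The genotypes overlapped. The homozygous level differed from the wild-type level by a log2 of 0.19 (SE 0.14, adjusted p 0.371 by limma), which turned to −0.05 after median-ratio scaling (adjusted p 0.807). Of the words in *Cpt1b* transcripts, 79.7% are shared with *Gm44502*, a transcript that overlaps it on the same strand. *Gm44502* was not among the symbols used, so how shared reads were assigned is unknown and the level of *Cpt1b* is uncertain. As a share of the summed cardiomyocyte markers *Cpt1b* was 0.244% to 0.290% in wild-type, 0.275% to 0.317% in heterozygous and 0.313% to 0.355% in homozygous hearts, with no overlap between wild type and homozygous. The summed markers themselves averaged 54114 TPM in wild-type and 49826 TPM in homozygous hearts. How many of all genes separate on this share was not counted. The ratio of *Cpt1b* to *Cpt1a* TPM within a library does not depend on scaling. It was 9.15, 8.32 and 7.76 in wild-type (mean 8.41 ± 0.697), 6.98, 7.82 and 6.93 in heterozygous (mean 7.24 ± 0.504) and 7.01, 5.42 and 5.91 in homozygous hearts (mean 6.11 ± 0.815, SD, n = 3 each). Every homozygous ratio was below every wild-type ratio, and heterozygous ratios overlapped both. The ratio was tested on log2(TPM + 1), where the added 1 TPM makes it depend slightly on scale. The mean log2 ratio on that scale was −0.44 in homozygous minus wild-type hearts (exact two-sided permutation p = 0.1, the smallest that 3 against 3 libraries allow), −0.24 in homozygous minus heterozygous (exact p = 0.3) and −0.19 in heterozygous minus wild-type hearts (exact p = 0.2). In each genotype the muscle form exceeded the liver form by at least 5.42-fold in TPM.

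**Figure D3:**
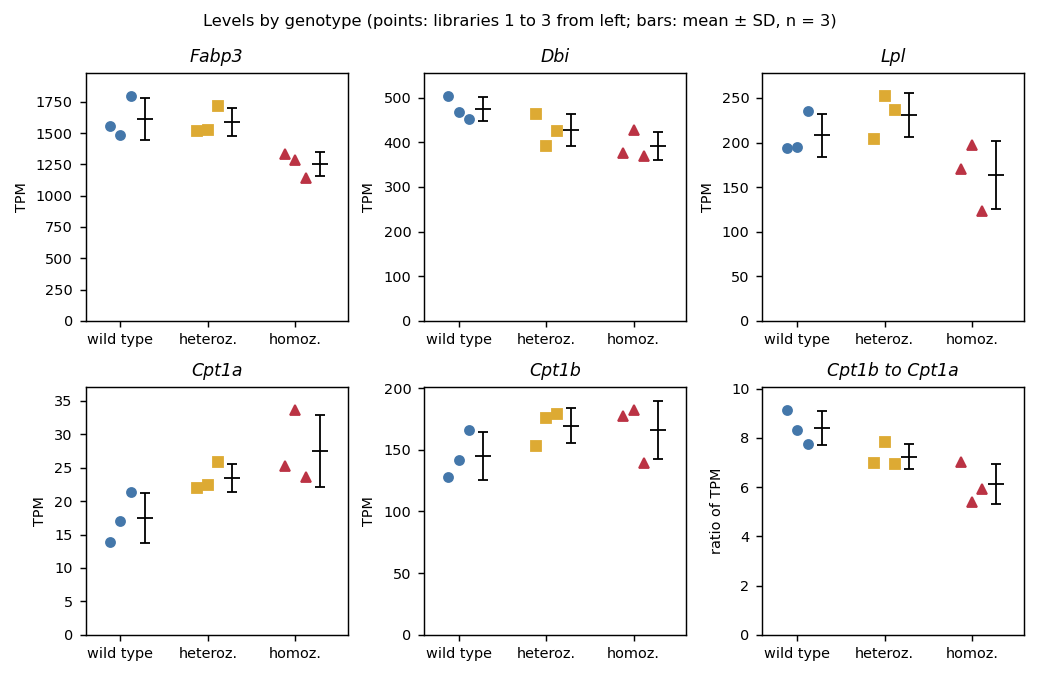
TPM of *Fabp3*, *Dbi*, *Lpl*, *Cpt1a* and *Cpt1b* and the ratio of *Cpt1b* to *Cpt1a* (vertical axes, from 0) in libraries 1 to 3 of each genotype, with mean ± SD beside the points. Homozygous triangles lie below all wild-type circles for *Fabp3*, *Dbi* and the ratio, lie above them for *Cpt1a*, and overlap them for *Lpl* and *Cpt1b*.

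The other shuttle genes overlapped between wild-type and homozygous hearts. *Slc25a20*, the exchanger of acylcarnitine for carnitine in the inner membrane, was at 42.8 ± 4.19 and 50.9 ± 9.24 TPM. *Cpt2*, which returns the acyl chain to CoA inside the mitochondrion, was at 29.3 ± 4.56 and 36.1 ± 9.75 TPM, and *Crat*, which buffers acetyl groups on carnitine, at 103 ± 20.9 and 108 ± 15.9 TPM. *Cpt1c* was at 2.29 ± 0.352 and 3.42 ± 0.724 TPM (SD, n = 3 each), with homozygous replicate 3 and wild-type replicate 3 both at 2.59 TPM. Among genes that set the choice of fuel, *Mlycd*, the decarboxylase that removes the CPT1 inhibitor malonyl-CoA, was at 14.7 ± 2.5 and 17.8 ± 1.43 TPM. *Pdk4*, the kinase that shuts pyruvate out of oxidation, stood at 14.1, 19.5 and 15.8 TPM in the wild-type libraries, but at 21.6, 29.3 and 13.7 TPM in the homozygous ones, a spread wider among homozygous than among wild-type libraries.

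Genes of the mitochondrial spiral itself overlapped between these genotypes without exception. The acyl-CoA dehydrogenases, which take the first pair of electrons from chains of decreasing length, were at 184 ± 25.6 and 198 ± 35.1 TPM for *Acadvl*, 430 ± 56.9 and 438 ± 71.0 TPM for *Acadl*, 288 ± 42.2 and 296 ± 40.6 TPM for *Acadm*, and 92.1 ± 6.27 and 105 ± 17.3 TPM for *Acads* in wild-type and homozygous hearts (SD, n = 3 each). Their log2 differences were 0.02 to 0.17, and all 4 lay below the median of all genes. *Hadha* was at 231 ± 46.2 and 276 ± 51.0 TPM and *Hadhb*, which shares its start interval, at 258 ± 45.1 and 289 ± 46.2 TPM. The ratio of the subunits stayed within 0.877 to 0.998 in the 9 libraries. Of the words in *Hadhb* transcripts, 23.3% are shared with other genes. For shorter chains, the hydratase gene *Echs1* was at 169 ± 9.71 and 158 ± 20.9 TPM, the dehydrogenase gene *Hadh* at 179 ± 17.2 and 174 ± 34.2 TPM, and the thiolase gene *Acaa2* at 293 ± 21.4 and 314 ± 68.3 TPM.

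Genes of auxiliary enzymes that admit unsaturated chains to the spiral likewise overlapped between wild-type and homozygous hearts. The isomerase genes *Eci1* and *Eci2* were at 158 ± 9.30 and 162 ± 32.8 TPM and at 86.6 ± 2.83 and 99.1 ± 14.8 TPM in wild-type and homozygous hearts, and the reductase gene *Decr1* at 32.6 ± 3.53 and 38.1 ± 7.42 TPM (SD, n = 3 each). Of the genes that pass electrons on to ubiquinone, *Etfa* was at 298 ± 15.2 and 305 ± 36.2 TPM, *Etfb* at 657 ± 65.4 and 619 ± 102 TPM, and *Etfdh*, the ubiquinone oxidoreductase, at 132 ± 19.7 and 162 ± 25.4 TPM. Shared words made up 49.9% for *Etfb*, chiefly with the overlapping *Gm45233*, 10.8% for *Etfa* and 13.6% for *Eci2*, which limits how well these levels are separated from those of related sequences.

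Some libraries stood at the low or high end for many members. On deposited TPM, homozygous replicate 3 was the lowest of all 9 libraries for 19 of the 33 tested members, and the lowest of its group for 32, the exception being *Slc27a1*. Homozygous replicate 2 was the highest of all 9 for 22. After median-ratio scaling, homozygous replicate 3 was the lowest of 9 for 22 members and homozygous replicate 2 the highest for 6, while heterozygous replicate 2 was the highest for 11 and wild-type replicate 1 for 9. Homozygous replicate 3 was also the library with 765 TPM of thymocyte markers and the lowest summed cardiomyocyte markers, 41533 TPM, and the part of these in the low levels was not tested. Without it, the median of members relative to all genes between homozygous and wild-type hearts was −0.04 in place of −0.16, and *Fabp3*, *Dbi* and *Cpt1a* had log2 differences of −0.30, −0.24 and 0.73. The summed TPM of the 34 genes as a share of the summed cardiomyocyte markers was 12.1% to 13.1% in wild-type, 12.3% to 12.6% in heterozygous and 11.9% to 14.1% in homozygous hearts.

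**Figure D4:**
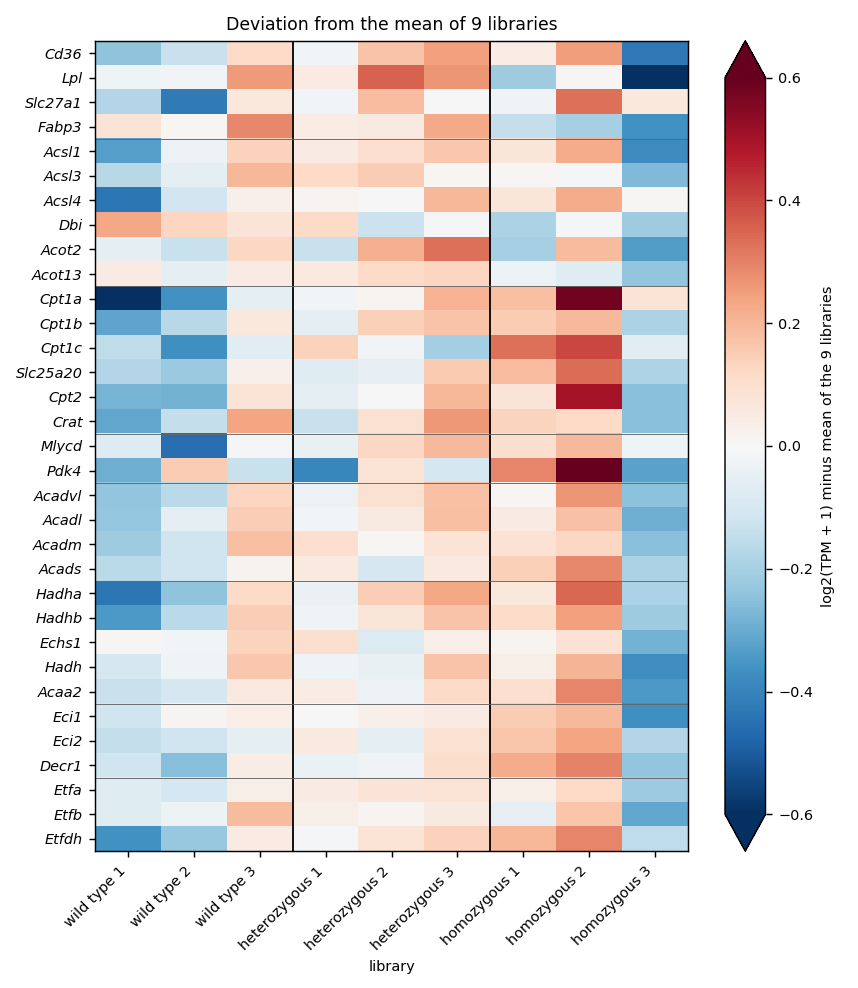
Deviation of log2(TPM + 1) from its mean over the 9 libraries for the 33 tested genes (rows, grouped by role) in each library (columns), with red above and blue below the mean and values past the ends of the colour scale shown in its end colours. The column of homozygous replicate 3 is blue in nearly all rows and that of replicate 2 mostly red, while the rows of *Fabp3* and *Dbi* are blue or near white in all 3 homozygous columns.

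Homozygous hearts were next compared with heterozygous hearts, a comparison that shares its homozygous libraries with the one above. *Lpl*, *Fabp3*, *Acsl3* and *Acot13* lay lower in all 3 homozygous libraries, and no member lay higher in all 3. None of the 33 passed an adjusted p of 0.05, where 0.0439% of all genes did, and 3 had an unadjusted p under 0.05, as did 7.15% of all genes. The 4 members on the lower side stood against 3.85% of all genes, and the 0 on the higher side against 12.0%. The log2 difference was −0.52 (SE 0.17) for *Lpl* and −0.34 (SE 0.10) for *Fabp3*, with limma adjusted p of 0.614 and 0.563. For *Acot13* it was −0.22, with 240, 233 and 208 TPM in the homozygous libraries against 256, 265 and 268 TPM in the heterozygous ones. For *Acsl3* it was −0.18, and the groups were separated by the narrow gap between 40.2 and 40.4 TPM. The median of the 33 was −0.04, or −0.12 relative to all genes, and 28 were below the median of all genes.

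Heterozygous hearts were compared with wild-type hearts to see where 1 mutant allele placed these genes. None of the 33 members passed, where 0.0146% of all genes did, and *Cpt1a* alone had an unadjusted p under 0.05, as did 6.87% of all genes. Its log2 difference was 0.42 (SE 0.18, limma adjusted p 0.672) and 0.27 after median-ratio scaling. *Acot13*, *Cpt1a* and *Etfa* did not overlap on the higher side, where 12.8% of all genes did not, and 0 members did so on the lower side, against 1.03% of all genes. *Etfa* averaged 298 ± 15.2 TPM in wild-type hearts against 324 ± 3.66 TPM in heterozygous hearts (SD, n = 3 per genotype). *Fabp3* differed by −0.02, *Dbi* by −0.15 and *Lpl* by 0.15 (log2), with adjusted p of 0.956, 0.672 and 0.756. The median of the 33 was 0.14, or −0.01 relative to all genes.

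Further genes of the pathway, taken from 6 lists, gave the surroundings of these members. None of the tested genes in these lists passed in any comparison on the deposited scale. Between homozygous and wild-type hearts, medians relative to all genes were 0.01 for PPAR and ERR regulators (19 tested) and −0.15 for other uptake, transport and activation genes (17). The median was −0.16 for a mixed list of acyl-CoA genes that also held *Acaca*, *Acacb*, *Nnt* and *Fdxr* (18). It was −0.02 for peroxisomal beta-oxidation (16), −0.30 for ketone body metabolism (6) and −0.07 for triglyceride storage and lipolysis (17). Unadjusted p was under 0.05 for 6, 1, 1, 4, 0 and 3 of them, for 1, 0, 0, 0, 0 and 0 between homozygous and heterozygous hearts, and for 3, 0, 1, 2, 0 and 4 between heterozygous and wild-type hearts, where this held for 25.0%, 7.15% and 6.87% of all tested genes in the 3 comparisons. After median-ratio scaling 2 genes were called between homozygous and wild-type hearts, both lower. Of all genes 1.67% were called there, 42 genes higher and 187 lower. The 2 were *Hibch*, an enzyme of valine breakdown (limma adjusted p 0.0497), and *Phyh*, which starts the breakdown of branched phytanic acid in the peroxisome (limma adjusted p 0.0187). *Phyh* averaged 180 ± 20.9 TPM in wild-type hearts against 149 ± 22.9 TPM in homozygous hearts (SD, n = 3 per genotype).

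The regulators of the pathway were present at moderate levels. *Ppara*, the nuclear receptor for fatty acids, was at 10.3 ± 3.95, 14.0 ± 2.5 and 10.3 ± 1.92 TPM in wild-type, heterozygous and homozygous hearts (SD, n = 3 each). *Ppargc1a*, its coactivator, was at 23.3 ± 6.73, 34.0 ± 6.01 and 33.3 ± 7.98 TPM. *Esrra*, an orphan receptor that drives oxidative genes, was chosen after its values were seen. It was at 65.5, 55.2 and 70.3 TPM in wild-type hearts, against 77.6, 84.3 and 75.0 TPM in homozygous hearts, without overlap. In this comparison 22.3% of all tested genes, and 5 of the 19 regulators, lay higher without overlap. The log2 difference of *Esrra* was 0.31, or 0.08 relative to all genes (limma adjusted p 0.145). *Fabp4*, the carrier of endothelium and fat, was at 370 ± 27.2 and 374 ± 35.7 TPM in wild-type and homozygous hearts, beside 1611 ± 166 and 1251 ± 98.3 TPM of *Fabp3*. *Oxct1*, which activates ketone bodies for use, was at 213 ± 34.1 and 187 ± 30.5 TPM, and *Acot1*, the cytosolic neighbour of *Acot2*, at 12.0 ± 0.407 and 12.0 ± 2.27 TPM. *Pnpla2*, the triglyceride lipase, was at 33.1 ± 3.86 and 34.7 ± 7.15 TPM, and *Plin2*, a coat protein of lipid droplets, at 28.6 ± 3.60 and 32.3 ± 3.73 TPM. The values of each of these last 5 genes overlapped between wild-type and homozygous hearts.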

How the data were processed

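Hearts of E18.5 embryos of 3 *Ctcf* genotypes were sequenced in 3 libraries each. Per the submitters' processing notes, Trim Galore (v0.6.10) served for trimming, STAR (v2.7.4a) for alignment to mm10 and RSEM (v1.2.28) for quantification. The authors deposited TPM. Annotation and strand setting are not given in the sources used here. TPM sums to 999100 to 999245 per library and keeps no depth, so no counting interval can be given and a count test was not run. The table lists 24597 symbols, of which 26 turned into dates were left out. No fold changes of the authors were used.

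Log2(TPM + 1) of the 13682 genes averaging 1 TPM or more was fitted with limma (v3.58.1, R v4.3.3, mean-variance trend, 6 residual degrees of freedom) for all 3 genotypes together, with Benjamini-Hochberg adjustment over all tested genes and calls at an adjusted p under 0.05. Tests were two-sided. The procedure was run on simulated data with independent errors for each gene and no shift shared by all genes. That simulation therefore does not cover the shared shifts seen in these libraries. Members and lists were chosen with earlier results of these data known. Values per library and tests were given for members called in any comparison, for members without overlap between these homozygous and wild-type libraries that differed by at least 0.4 (log2) from the median of all genes, and for *Fabp3*, *Dbi*, *Lpl*, *Cpt1a* and *Cpt1b*, and also for *Pdk4*, *Acot13* and *Esrra*, chosen after their values were seen. Of the further lists, called genes and genes set by name were given, of which 1 is not reported here. Coordinates and shared 31-base words came from GENCODE M21 (GRCm38) and promoter windows from RefSeq (GRCm38.p6). Members were counted under alternative scalings, filters, pseudocounts, weights, covariates and omissions of libraries.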

Additional observations from a re-analysis of the deposited data

How the results depend on the processing

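TPM hides depth, and 3 libraries a group left a median SE of 0.18 on a log2 difference, with member SEs from 0.09 (*Acot13*) to 0.24 (*Pdk4*). Between homozygous and wild-type hearts, genes called over all genes were 46, and 22 without a filter, 229 after median-ratio scaling, 71 after quantile normalization, 77 after rescaling without mitochondrially encoded and haemoglobin genes, 5068 with arrayWeights, 11 with the 2 groups alone, 11 without the 3 libraries with transcripts of other organs, and 13 to 2170 without single libraries, the highest without wild-type replicate 3. Of members, 0 passed, against 1 after median-ratio scaling (*Fabp3*) and 1 after rescaling without mitochondrially encoded and haemoglobin genes (*Fabp3*). With arrayWeights 15 members passed (13 higher, 2 lower), and without single libraries 0 to 1 (*Cpt1a* without wild-type replicate 3). When single libraries were left out after median-ratio scaling, 1 to 4 members passed, beside 26 to 407 of all genes. Both counts were highest without wild-type replicate 3, where *Acot13*, *Dbi* and *Echs1* joined *Fabp3*. With that scaling 0 members passed without the 3 libraries with transcripts of other organs, beside 16 of all genes. The cause of these changes was not tested. The combinations with median-ratio scaling were chosen after seeing the data. The median of members relative to all genes was −0.16, and −0.04 without a filter, 0.0085 after quantile normalization and −0.22 to −0.0411 without single libraries, the nearest to 0 without homozygous replicate 3. With arrayWeights *Fabp3*, *Dbi*, *Cpt1a* and *Cpt1b* passed at −0.24, −0.28, 0.70 and 0.32. The other members that passed there, all higher, were *Acads*, *Cpt1c*, *Cpt2*, *Decr1*, *Eci2*, *Etfdh*, *Hadha*, *Hadhb*, *Mlycd*, *Slc25a20* and *Slc27a1*. Of the 5068 genes called there, 4811 were higher. *Cpt1b* turned to −0.0465 after median-ratio scaling and to −0.0179 with that scaling without the 3 libraries with transcripts of other organs. With that scaling it was −0.0754, −0.0286 and −0.0392 without wild-type replicates 1, 2 and 3, −0.0465, −0.0467 and −0.0458 without heterozygous replicates 1, 2 and 3, −0.0742 and −0.0759 without homozygous replicates 1 and 2, and 0.0083 without homozygous replicate 3.

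Between homozygous and heterozygous hearts, genes called were 6, and 2 with a pseudocount of 5, 2 without a filter, 15 after median-ratio scaling, 11 after quantile normalization, 10 after rescaling without mitochondrially encoded and haemoglobin genes, 43 with arrayWeights, 0 with sex as covariate, 0 with the 2 groups alone and 1 to 6 without single libraries. Between heterozygous and wild-type hearts they were 2, and 1 with a pseudocount of 0.1, 1 at a mean minimum of 5 TPM, 5 after median-ratio scaling, 4 after quantile normalization, 4 with arrayWeights, 1 with sex as covariate, 0 with the 2 groups alone, 5 without the 3 libraries with transcripts of other organs and 1 to 6 without single libraries. Members passed in neither comparison under any of the 33 settings.

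Replicate numbers are shared between genotypes, and deviations of same-numbered libraries correlated at −0.031 to 0.359. The highest, 0.359 for replicate 1 and 0.297 for replicate 3, were both between wild-type and heterozygous libraries. Differently numbered libraries of these genotypes correlated at −0.314 to 0.121. The other same-numbered pairs reached 0.065 at most. Whether the numbers pair embryos is not settled by these values, and the main fit did not use them. With the replicate number as a block, genes called were 17, 1 and 1 in the 3 comparisons and members called were 0, and with the block and median-ratio scaling 1 member, *Fabp3*, passed between homozygous and wild-type hearts (adjusted p 0.0408) and *Cpt1b* was at −0.0465. The difference in the *Cpt1b* to *Cpt1a* ratio between homozygous and wild-type hearts was −0.54 to −0.35 (log2) in the 9 settings tried. The exact permutation p was 0.1 to 0.3333. It was highest without the 3 libraries with transcripts of other organs, where the libraries left allow no smaller p. Leaving out libraries could not reverse the direction, because every homozygous ratio lay below every wild-type ratio.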
